A study of Mus musculus with 20 samples.

Results

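A set of imprinted genes known for their part in fetal growth was followed in MEFs, the mouse embryonic fibroblasts that grow out of minced embryos. The 10 genes listed were Igf2, H19, Dlk1, Meg3, Peg3, Cdkn1c, Plagl1, Mest, Grb10 and Igf2r. A probe was counted as a member when the transcript accession that the array gives for it belongs to one of these genes in RefSeq. This rule found 13 of the 41174 non-control probes, covering 8 of the 10 genes, and H19 and Meg3 were not analysed here. All 13 probes were well above background on all 20 arrays, so that none was lost to the filter on dim probes.

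An imprinted gene is expressed from the copy inherited from only one parent, because the other copy carries a silencing mark, usually DNA methylation, laid down in the germ line. Many paternally expressed members promote growth of the fetus and many maternally expressed members restrain it. The genes are expressed together in embryonic mesoderm and placenta, and most are turned down in the tissues of the mouse after birth.

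Serum taken from female mice of the inbred strain C3H/HeN was given to MEFs for 24 hours of culture, and their RNA was measured on Agilent one-colour arrays. The groups, each of 5 arrays, were 8 Gy serum of the 20-day set, control serum (0 Gy) of the 20-day set, 4 Gy serum of the 10-day set and control serum (0 Gy) of the 10-day set. Irradiation followed a regime written as L/MDR, which the labels do not expand, and they do not say what the 10 and 20 days count. Nothing says whether the 5 replicates of a group were separate cultures or serum donors, so the p-values measure the spread between arrays, which may be technical. The arrays of the 20-day and 10-day sets were on different slides and were scanned in different sessions. Set, day and scan session therefore cannot be told apart, and for irradiated serum neither can dose. A level is given as the log2 processed signal of a probe minus the 75th percentile of its array. Levels of different probes are not compared, since each probe has its own brightness.

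Fibroblast identity was checked with 10 markers, of which 10 were well above background in each of the 4 groups. Their summed linear signal, in multiples of the array's 75th percentile, was 1025 to 1163 with 8 Gy serum, 1043 to 1258 with 20-day control serum, 1173 to 1326 with 4 Gy serum and 1304 to 1394 with 10-day control serum. The sum gives most weight to bright probes. S100a4, the brightest in the 20-day groups, averaged 8.69 with 8 Gy serum and 8.95 with 20-day control serum. In the 10-day set it averaged 7.92 with 4 Gy serum and 7.95 with control serum. As S100a4 was higher in the 20-day set while 7 of the 10 markers fell there, the sum understates the fall of those 7. Markers of macrophages differed far more between the sets, and their values are given beside the results. In RNA from a whole culture, fewer cells of a type and less RNA per cell cannot be told apart.

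Promoters of the members on which the results turn are shown first, because imprinted members are often controlled through CpG-rich DNA near the start of the gene. Each sequence is the 250 bases before a RefSeq transcript start in GRCm38.p6, read 5′ to 3′ on the strand of the gene. Capitals mark GGGGCCCC, letters contained in a binding sequence described for PLAGL1, and GGGCGG, the GC box bound by SP1-type factors. Both were searched on both strands with overlapping matches included, and a GC box on the opposite strand reads CCGCCC. In the 32851 promoters of the RefSeq table, GGGGCCCC was found in 0.889% and the GC box in 32.7%.
Igf2, outermost start, chr7:142666817-142667066, minus strand: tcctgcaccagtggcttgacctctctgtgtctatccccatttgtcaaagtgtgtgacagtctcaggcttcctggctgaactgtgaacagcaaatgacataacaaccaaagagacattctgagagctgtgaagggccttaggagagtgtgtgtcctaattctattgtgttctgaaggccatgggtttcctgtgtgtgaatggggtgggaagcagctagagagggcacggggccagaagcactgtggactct
Igf2, CpG-rich start, chr7:142658805-142659054, minus strand: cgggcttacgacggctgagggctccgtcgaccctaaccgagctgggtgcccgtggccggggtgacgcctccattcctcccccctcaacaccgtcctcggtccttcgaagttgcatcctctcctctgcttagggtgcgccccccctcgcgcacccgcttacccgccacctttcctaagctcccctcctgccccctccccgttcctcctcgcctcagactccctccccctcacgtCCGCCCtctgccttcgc
Plagl1, chr10:13090582-13090831, plus strand: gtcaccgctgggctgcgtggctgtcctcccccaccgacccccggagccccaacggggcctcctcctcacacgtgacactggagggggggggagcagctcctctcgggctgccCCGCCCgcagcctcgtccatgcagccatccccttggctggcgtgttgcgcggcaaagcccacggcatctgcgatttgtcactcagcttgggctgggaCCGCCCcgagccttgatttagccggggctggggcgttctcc
Grb10, outer start, chr11:12037421-12037670, minus strand: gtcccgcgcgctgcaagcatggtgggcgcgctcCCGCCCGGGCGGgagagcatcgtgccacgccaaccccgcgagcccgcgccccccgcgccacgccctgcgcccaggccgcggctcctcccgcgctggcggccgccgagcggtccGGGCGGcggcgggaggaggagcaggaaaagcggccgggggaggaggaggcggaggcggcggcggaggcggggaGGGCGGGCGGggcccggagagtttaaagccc
Peg3, chr7:6730420-6730669, minus strand: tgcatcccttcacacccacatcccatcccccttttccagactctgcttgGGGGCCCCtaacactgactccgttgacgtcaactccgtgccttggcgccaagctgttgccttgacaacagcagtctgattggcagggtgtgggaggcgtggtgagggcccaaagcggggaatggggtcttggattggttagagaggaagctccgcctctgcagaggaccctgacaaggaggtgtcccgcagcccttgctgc

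The outermost Igf2 start held 1 CpG dinucleotide in its 250 bases and the CpG-rich Igf2 start held 22. The Plagl1 promoter had 19 CpGs and 2 GC boxes, and the outer Grb10 promoter had 40 CpGs and 5 GC boxes. Fewer CpGs than at that Grb10 start were present in 98.7% of all promoters, for which the median was 6 and the quartiles were 2 and 16. The Peg3 promoter, with 8 CpGs, was the 1 window with GGGGCCCC among the 15 windows that RefSeq gives for 8 of the 10 listed genes, and 8 of the 15 held a GC box. The genes with a window include Meg3, whose level was not analysed here, and leave out H19 and Cdkn1c. A match of letters is a description of the window and not a measured binding site.

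The members were far lower in the 20-day set than in the 10-day set, with control serum and with irradiated serum alike. Between the 2 control groups, 12 of the 13 probes, covering all 8 genes, fell in the 20-day set and 0 rose, where 32.3% of the 26231 probes tested fell and 35.4% rose, 67.8% in either direction. The median log2 difference of the 13 probes was −1.53, against 0.02 over all probes tested. Between 8 Gy serum and 4 Gy serum, 13 of 13 probes fell, where 28.9% of all probes fell and 28.2% rose, 57.1% in either direction, and the median log2 difference was −1.95, against −0.01. Both comparisons use the 2 sets as they are and the groups of the 12 and the 13 probes did not overlap. How many of all probes tested also separated in this way was not counted.

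**Figure D1:**
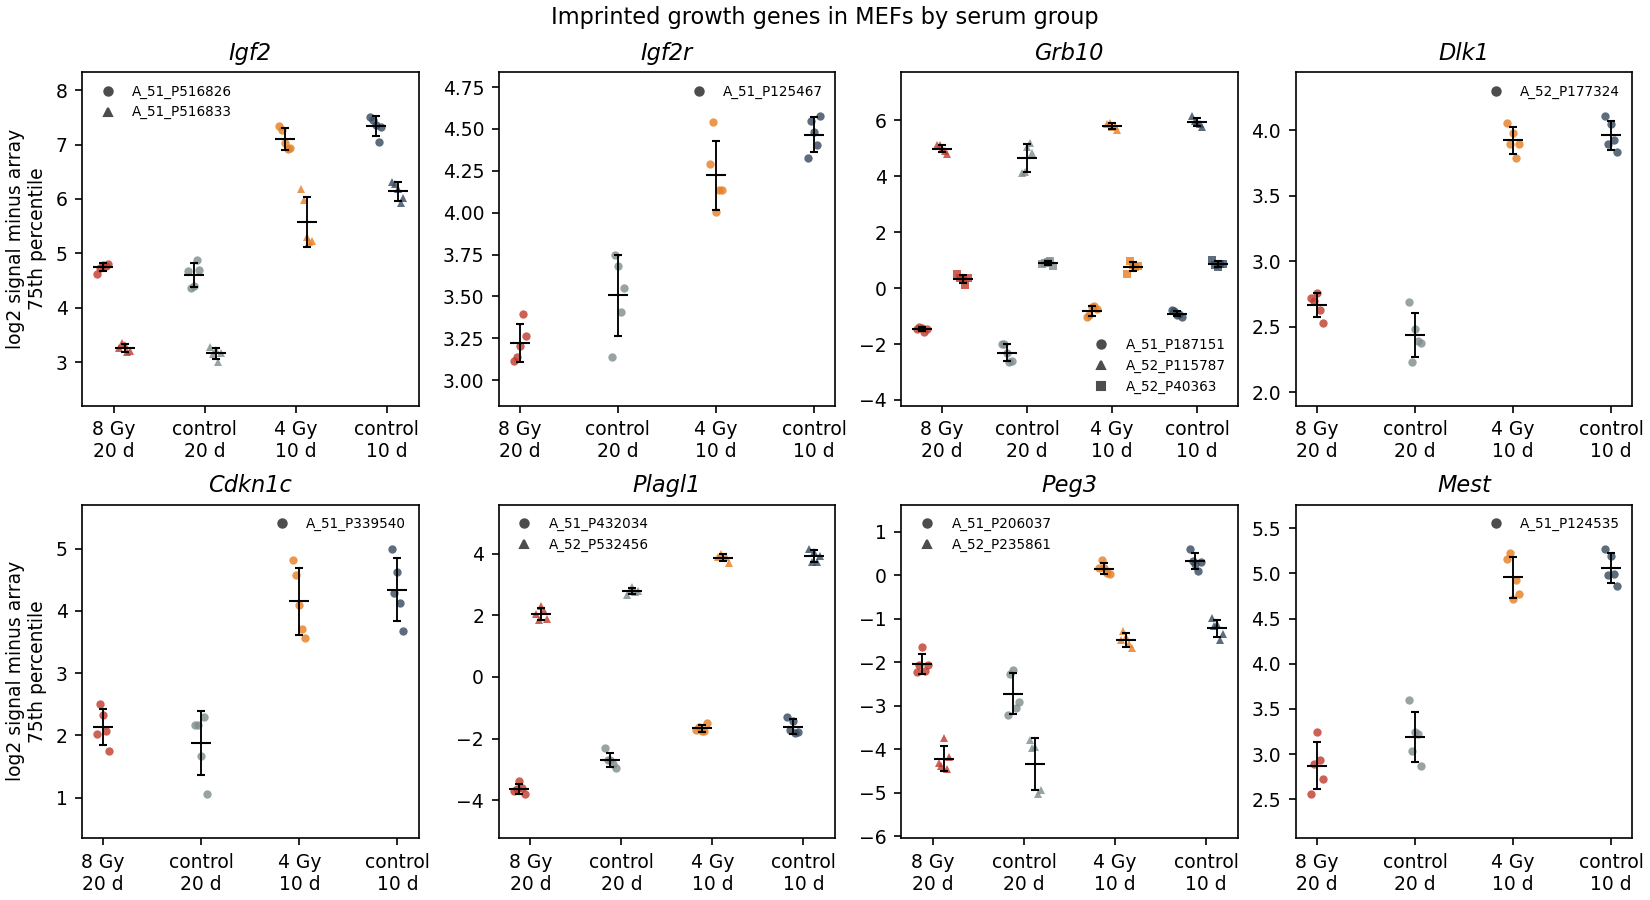
Level of each member probe on every array: log2 processed signal minus the 75th percentile of the array (vertical axis) for 8 Gy and control serum of the 20-day set and 4 Gy and control serum of the 10-day set (horizontal axis). Points are arrays, marker shapes are probes of a gene, and bars are the mean ± SD of 5 arrays. Both Igf2 probes average more than 2 log2 units lower in the 20-day groups, while the third Grb10 probe (squares) stays near 0.89 and 0.86 in the control groups.

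Igf2 encodes insulin-like growth factor 2, the fetal growth factor at the head of the network, and is expressed from the paternal copy. Its brighter probe, A_51_P516826, is printed as 10 spots on each array, and those not marked as non-uniform or outlying were averaged. With 8 Gy serum its level on arrays 1 to 5 was 4.62, 4.74, 4.80, 4.77 and 4.81, and with 20-day control serum it was 4.67, 4.36, 4.40, 4.88 and 4.70. With 4 Gy serum it was 7.34, 7.27, 7.03, 6.91 and 6.94, and with 10-day control serum it was 7.50, 7.46, 7.36, 7.05 and 7.33. Every array of the 20-day set lay more than 2 log2 units under every array of the 10-day set. The log2 difference between the control groups was −2.74 ± 0.11 (SE, n = 5 each, adjusted p = 1.68e-13), which is 6.67-fold lower in the 20-day set. Between 8 Gy and 4 Gy serum the log2 difference was −2.35 ± 0.11 (SE, adjusted p = 2.34e-12), which is 5.11-fold lower with 8 Gy serum. Of all tested probes, 0.679% lay lower than this probe in the first of these comparisons and 0.854% in the other.

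The second Igf2 probe, A_51_P516833, moved in the same direction. It averaged 3.27 ± 0.07 with 8 Gy serum, 3.17 ± 0.10 with 20-day control serum, 5.58 ± 0.46 with 4 Gy serum and 6.14 ± 0.17 with 10-day control serum (SD, n = 5 each). Its log2 difference was −2.97 ± 0.16 between the control groups and −2.32 ± 0.16 between the irradiated groups (SE, adjusted p = 5.16e-12 and 4.07e-10). The spread of 0.46 with 4 Gy serum was the widest of its 4 groups and is taken up with the 10-day comparison.

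Igf2r and Grb10 hold back growth factor signalling and are expressed mainly from the maternal copy. Igf2r, the receptor that takes IGF2 into the cell for breakdown, had levels of 3.11, 3.14, 3.20, 3.39 and 3.26 with 8 Gy serum and 3.14, 3.75, 3.68, 3.41 and 3.55 with 20-day control serum. In the 10-day set it had 4.29, 4.54, 4.01, 4.14 and 4.14 with 4 Gy serum and 4.33, 4.55, 4.48, 4.40 and 4.57 with control serum. Every 20-day array lay under every 10-day array, by a smaller step than for Igf2. The log2 difference was −0.96 ± 0.11 between the control groups and −1.00 ± 0.11 between the irradiated groups (SE, adjusted p = 3.81e-07 and 5.30e-07).

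Grb10 encodes an adaptor protein that dampens insulin and IGF receptor signalling, and its 3 probes, which carry the same transcript accession, did not move alike. Between the control groups probe A_51_P187151 fell by 1.40 and probe A_52_P115787 by 1.27 on the log2 scale (SE 0.12 and 0.16, adjusted p = 5.09e-09 and 1.33e-06). Probe A_52_P40363 averaged 0.89 ± 0.07 with 20-day control serum and 0.86 ± 0.09 with 10-day control serum (SD), a log2 difference of 0.03 ± 0.09 (SE, adjusted p = 0.777) that turns to −0.04 and −0.07 under other normalizations. It was the 1 member probe not called between the controls. Between the irradiated groups the 3 probes differed by −0.65, −0.81 and −0.45, all past the threshold.

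Dlk1, Cdkn1c and Plagl1 act on differentiation, the cell cycle and transcription. Dlk1, a paternally expressed membrane protein that inhibits fat cell differentiation, averaged 2.67 ± 0.09 with 8 Gy serum, 2.43 ± 0.17 with 20-day control serum, 3.92 ± 0.10 with 4 Gy serum and 3.96 ± 0.11 with 10-day control serum (SD). Its log2 difference was −1.53 ± 0.08 between the controls and −1.26 ± 0.08 between the irradiated groups (SE, adjusted p = 1.06e-11 and 3.84e-10). Cdkn1c, which encodes the cyclin-dependent kinase inhibitor p57 and is maternally expressed, had a wide spread between arrays. Its levels were 2.02, 2.50, 2.33, 2.07 and 1.75 with 8 Gy serum and 2.16, 2.17, 1.67, 2.29 and 1.06 with 20-day control serum. In the 10-day set they were 4.82, 4.57, 4.10, 3.71 and 3.57 with 4 Gy serum and 5.00, 4.28, 4.62, 4.13 and 3.67 with control serum. The 2 sets still did not overlap, and the log2 difference was −2.47 ± 0.28 between the controls and −2.02 ± 0.28 between the irradiated groups (SE, adjusted p = 2.38e-07 and 6.44e-06).

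Peg3 and Mest are both paternally expressed, Peg3 as a zinc-finger protein and Mest as a member of the alpha/beta hydrolase fold family. Peg3 probe A_51_P206037 averaged −2.04 ± 0.24 with 8 Gy serum, −2.73 ± 0.48 with 20-day control serum, 0.15 ± 0.13 with 4 Gy serum and 0.32 ± 0.19 with 10-day control serum (SD). Its log2 difference of −3.05 ± 0.17 between the controls (SE, adjusted p = 1.92e-11) is 8.27-fold lower in the 20-day set, and probe A_52_P235861 gave −3.12 ± 0.21 (adjusted p = 1.97e-10). Of all tested probes 0.446% and 0.389% lay lower. With normexp probe A_52_P235861 was at −2.07 between the controls and −1.73 between the irradiated groups (adjusted p = 2.12e-10 and 1.18e-08). Mest averaged 2.87 ± 0.26 with 8 Gy serum, 3.19 ± 0.28 with 20-day control serum, 4.96 ± 0.23 with 4 Gy serum and 5.06 ± 0.17 with 10-day control serum (SD). Its log2 difference was −1.87 ± 0.14 between the controls and −2.08 ± 0.14 between the irradiated groups (SE, adjusted p = 1.29e-09 and 6.55e-10).

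Plagl1, also called Zac1, is a paternally expressed zinc-finger transcription factor reported to act on other imprinted genes. Its 2 probes differed by −1.08 ± 0.12 and −1.13 ± 0.10 between the controls, and by −1.95 ± 0.12 and −1.83 ± 0.10 between the irradiated groups (log2 ± SE). The first of them, A_51_P432034, was at −0.71 and −1.29 with normexp (adjusted p = 1.14e-05 and 7.06e-09). In both probes the fall was deeper between the irradiated groups. That contrast is the same as the difference between the serum responses tested further on.

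**Figure D2:**
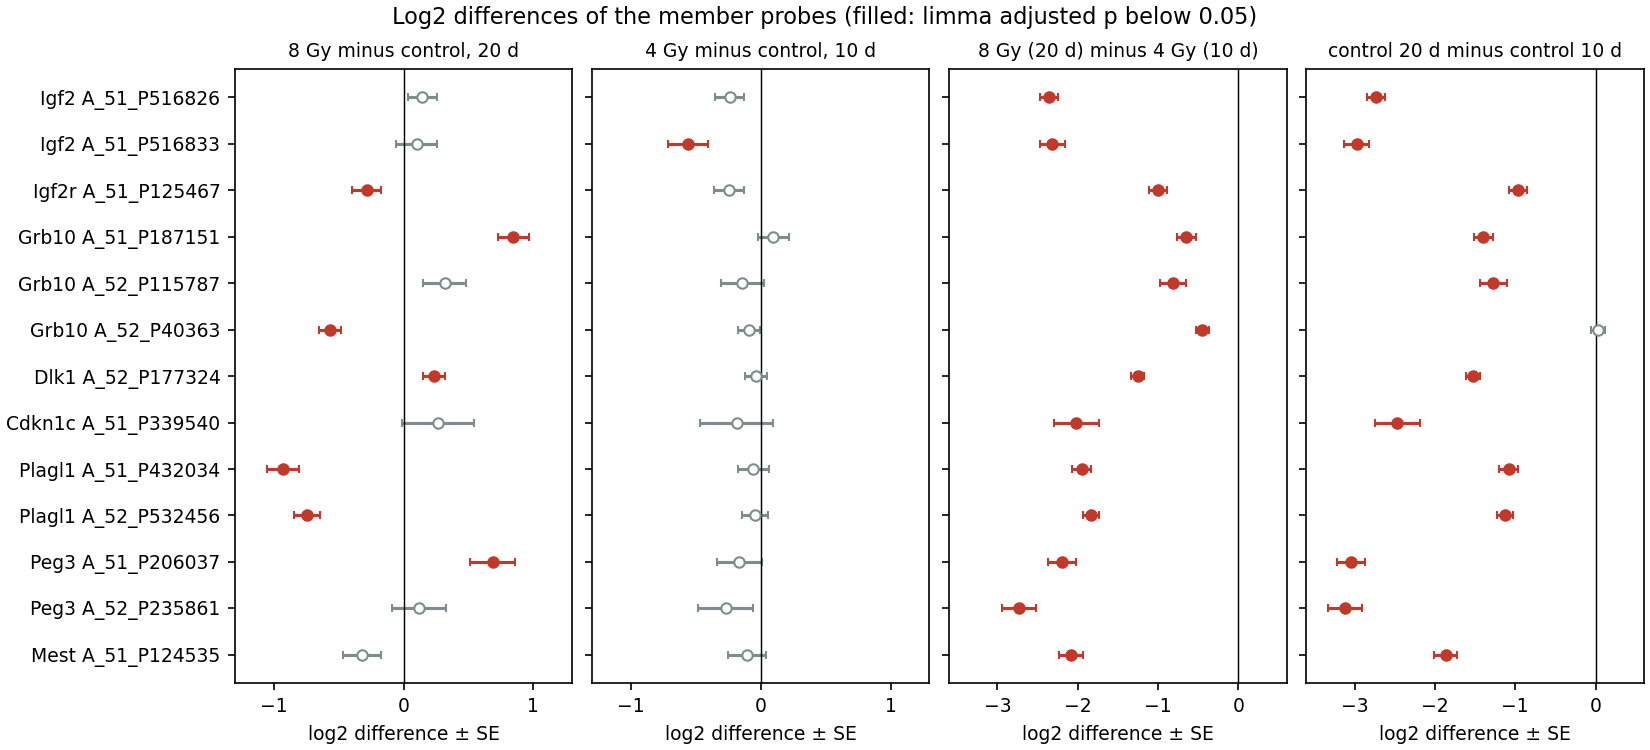
Log2 differences of the 13 member probes with their standard errors (horizontal axis) in 4 comparisons, one probe per row; filled red points passed a limma adjusted p of 0.05. Most points sit left of 0 in the 20-day against 10-day panels, while the panel of 8 Gy serum holds 3 filled points right of 0 and 4 left of it.

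Markers of other cell types differed between the sets as well. All 13 tested macrophage markers rose in the 20-day set, in both comparisons, with median log2 differences of 4.24 between controls and 4.06 between irradiated groups. Ptprc, the leukocyte surface protein CD45, differed by 5.45 and 4.66 (adjusted p = 9.74e-18 and 1.31e-16), and Tyrobp and Fcer1g, adaptors of myeloid receptors, rose too. Their summed linear signal, in multiples of the 75th percentile, was 41.1 to 50.4 with 8 Gy serum, 39.3 to 57.0 with 20-day control serum, 2.30 to 2.74 with 4 Gy serum and 1.68 to 2.39 with 10-day control serum. Of the 5 adipocyte markers 5 rose in both comparisons, and their sums were 33.0 to 40.3 with 8 Gy serum, 34.3 to 77.3 with 20-day control serum, 4.80 to 8.36 with 4 Gy serum and 4.26 to 7.04 with 10-day control serum. Adipoq and Cfd, hormone and protease of fat cells, were not well above background on any array of the 10-day set.

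Of the 10 fibroblast markers 7 fell and 2 rose in each comparison, with median log2 differences of −0.62 between controls and −0.57 between irradiated groups. These values use the brightest tested probe of each gene. Between controls the other probe differed by −1.99 for Fbn1 (−0.88 in the probe used), −1.31 for Col3a1 (−0.76), −0.15 for Thy1 (−0.27) and −0.34 for Pdgfra (0.62). The other Col1a1 probes were more negative there than the −0.38 of the probe used. Between irradiated groups the other probe differed by −1.45 for Fbn1 (−1.01), −0.66 for Col3a1 (−0.83), 0.28 for Thy1 (−0.15) and 0.63 for Pdgfra (0.31). Fn1, the matrix protein fibronectin, differed by −2.61 and −1.75, Col1a2 by −1.05 and −0.78 and S100a4 by 0.99 and 0.77. All 3 tested skeletal muscle markers fell in both comparisons, and of the 3 tested chondrocyte markers 2 fell between controls and 3 between irradiated groups. The fetal liver marker Afp, alpha-fetoprotein, was not well above background on any 10-day array. It was at least 14.6-fold higher with 8 Gy than with 4 Gy serum and at least 16.5-fold higher in the 20-day than in the 10-day controls (adjusted p = 5.03e-15 and 5.59e-15), while Alb, Apoa1, Ttr and Ahsg were above background on no array. Of the 3 tested endothelial markers 2 fell in each comparison. Kdr, a VEGF receptor, differed by −1.27 between irradiated groups and −1.22 between controls (adjusted p = 1.76e-09 and 1.27e-09). Cdh5, VE-cadherin, was above background on no 20-day array and at least 3.03-fold lower with 8 Gy than with 4 Gy serum and at least 2.17-fold lower in the 20-day controls (adjusted p = 3.41e-11 and 9.40e-10; with normexp it was not called). Pecam1 was above it on no array. The endothelial sums were 0.110 to 0.145 with 8 Gy serum, 0.124 to 0.194 with 20-day control serum, 0.233 to 0.288 with 4 Gy serum and 0.233 to 0.292 with 10-day control serum. Of the 5 tested epithelial markers 2 rose and 1 fell between controls, and 1 rose and 2 fell between irradiated groups. The epithelial genes Epcam and Cdh1 were above background on no array of the 20-day set. The part of these cell types in the fall of the imprinted growth genes was not tested.

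**Figure D3:**
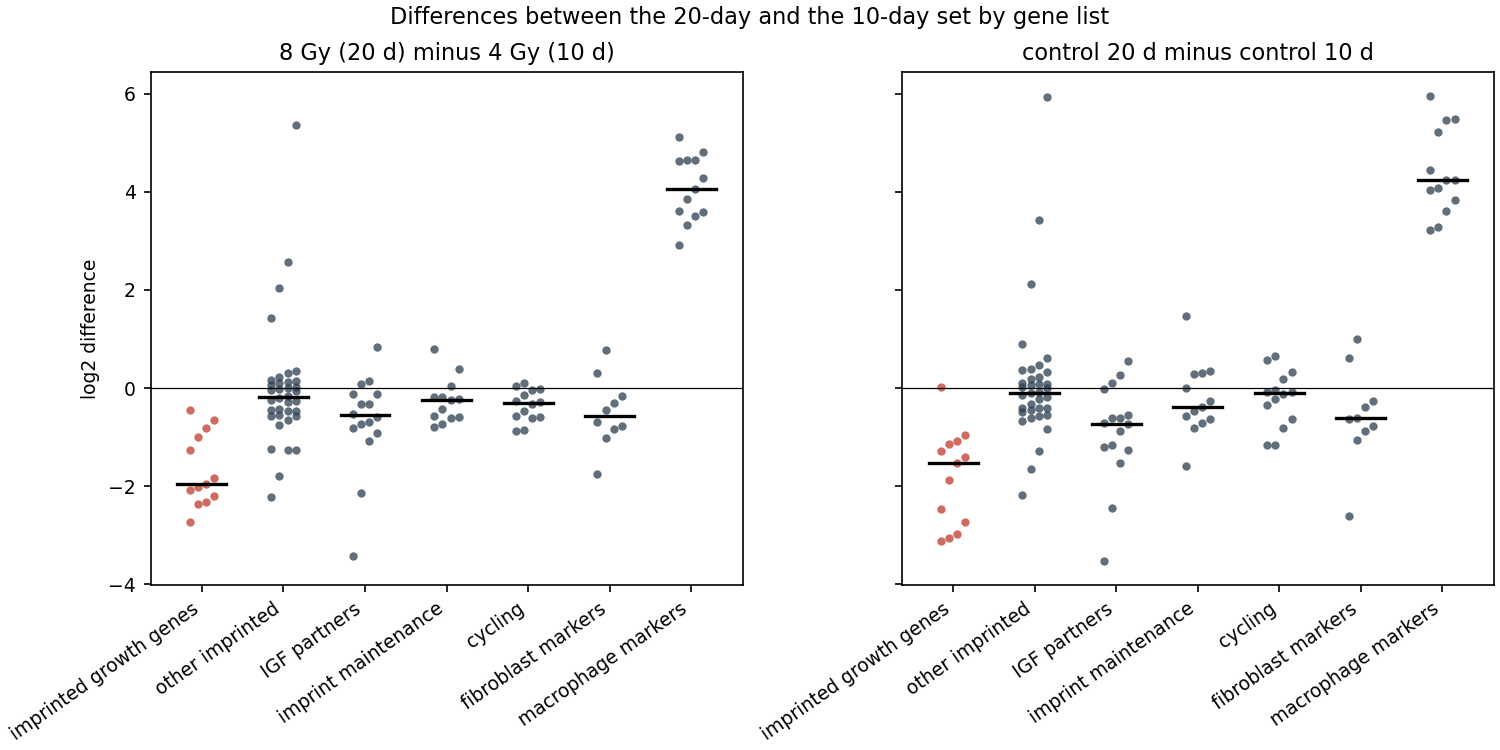
Log2 differences of the 20-day set minus the 10-day set (vertical axis) for 8 Gy against 4 Gy serum and for the 2 control groups. Points are the member probes (red) or 1 probe per tested gene of each list, and bars are medians. The imprinted growth genes have medians of −1.95 and −1.53 and the macrophage markers 4.06 and 4.24.

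Other imprinted genes did not share one direction. Of 36 tested genes of a list of 50, 12 fell and 9 rose in the 20-day set between controls, with a median log2 difference of −0.09, and 16 fell and 6 rose between irradiated groups, with a median of −0.19. Gab1, a docking protein of growth factor receptors, fell by 1.66 between controls (adjusted p = 7.04e-12), and Nnat fell by 2.21 between irradiated groups (adjusted p = 1.22e-11). Calcr, the calcitonin receptor, was well above background on all 5 control arrays of the 20-day set and on 0 of those of the 10-day set, and was at least 13.5-fold higher in the 20-day controls (adjusted p = 1.95e-12). It was at least 8.83-fold higher with 8 Gy than with 4 Gy serum (adjusted p = 1.50e-11), a bound against the dimmest signal read as above background. Gatm, an enzyme of creatine synthesis, rose by 3.42 and 2.57 on the log2 scale, and was well above background on 4 of 5 arrays of each 10-day group.

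Partners of IGF signalling were mostly lower in the 20-day set. Of 16 tested genes 12 fell and 1 rose between controls (median log2 difference −0.72), and 9 fell and 1 rose between irradiated groups (median −0.55). Over all probes tested, 32.3% fell and 35.4% rose between controls, and 28.9% fell and 28.2% rose between irradiated groups. Igfbp5, a secreted IGF-binding protein, differed by −3.53 between controls and −3.41 between irradiated groups (adjusted p = 4.16e-14 and 8.96e-14), and its other probe by −4.37 and −3.02. Igfbp3, the main IGF carrier of serum, differed by −2.44 and −2.13 (measured on 4 of 5 control arrays of the 20-day set), and the kinase gene Akt1 by −0.61 between controls (adjusted p = 1.33e-07).

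Genes that keep imprints and DNA methylation fell more often than they rose. Between controls 8 of 13 tested fell and 4 rose, among them Trim28, a corepressor that holds methylation at imprinted loci (−1.58), the maintenance methyltransferase Dnmt1 (−0.81) and Dnmt3l (1.47). Between irradiated groups 7 fell and 2 rose, and Uhrf1, Rad21 and Ctcf differed by −0.73, −0.61 and −0.57. With control serum Uhrf1 differed by −0.27, while Rad21 averaged 4.15 in both sets. Ctcf averaged 1.44 with 20-day and 1.15 with 10-day control serum, so it was not lower there. Of the 14 cycling genes, 5 fell and 2 rose between controls and 7 fell and 0 rose between irradiated groups. Of all probes tested, 32.3% fell and 35.4% rose between controls, 67.8% in either direction. Between irradiated groups 28.9% of all probes fell and 28.2% rose, 57.1% in either direction. Mcm2 and Top2a fell by 1.17 each between controls, and Ccna2 by 0.88 between irradiated groups.

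The genes most like Igf2 over the 20 arrays were found by the root mean square difference between probe-centred levels, among tested probes of named non-members. The closest were Csdc2 with 0.197, Cdh4 with 0.201, Sox11 with 0.214, Slc2a3 with 0.245 and Hs3st3b1 with 0.266 log2 units. The second Igf2 probe itself had 0.222. Csdc2, an RNA-binding protein gene, averaged −3.99 with 8 Gy serum, −4.08 with 20-day control serum, −1.55 with 4 Gy serum and −1.42 with 10-day control serum. Among the other members the value ran from 0.380 for Peg3 probe A_51_P206037 and 0.389 for Mest to 1.21 for Grb10 probe A_52_P40363. Most of this likeness is the step between the sets, which the arrays of a set share.

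The comparison of 8 Gy serum with control serum of the 20-day set asked how these genes differed with serum of irradiated mice within 1 set. No slide of this set held both groups, so serum and slide cannot be told apart. Of the 13 probes 3 rose and 4 fell, in 5 genes, where 20.6% of the 26232 probes tested rose and 27.4% fell, so that the 7 calls are near the share of all probes called, 48.0%. The median log2 difference was 0.12, with a range of −0.93 to 0.85, against −0.06 over all probes. Plagl1 fell in both probes, Grb10 moved in opposite directions in different probes, 1 Peg3 probe and Dlk1 rose, and Igf2r fell.

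Plagl1 gave the deepest fall. Probe A_51_P432034 had −3.70, −3.64, −3.37, −3.59 and −3.79 with 8 Gy serum and −2.31, −2.68, −2.69, −2.82 and −2.95 with control serum, a log2 difference of −0.93 ± 0.12 (SE, n = 5 each, adjusted p = 6.37e-06). Probe A_52_P532456 had 2.06, 1.85, 2.31, 2.13 and 1.87 with 8 Gy serum and 2.67, 2.80, 2.90, 2.76 and 2.80 with control serum, a log2 difference of −0.75 ± 0.10 (SE, adjusted p = 8.53e-06). In both probes all 5 arrays with 8 Gy serum lay under all 5 with control serum. Both calls held with each of the alternatives run, including slide as a random block (adjusted p = 0.000532 and 0.00088). No slide held both groups, so that block cannot separate slide from serum. With normexp the first probe was at −0.60 (adjusted p = 0.000217).

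For Grb10, probe A_51_P187151 had −1.47, −1.37, −1.44, −1.58 and −1.45 with 8 Gy serum and −1.98, −2.00, −2.32, −2.63 and −2.60 with control serum. Its 8 Gy arrays lay above all control arrays, by 0.85 ± 0.12 in the log2 mean (SE, adjusted p = 1.56e-05). Probe A_52_P40363 had 0.49, 0.37, 0.30, 0.11 and 0.36 with 8 Gy serum and 0.87, 0.91, 0.93, 0.97 and 0.79 with control serum. There the 8 Gy arrays lay below all control arrays, by a log2 difference of −0.57 ± 0.09 (SE, adjusted p = 3.12e-05). Probe A_52_P115787, with 4.99 ± 0.13 and 4.67 ± 0.50 (SD), differed by 0.32 ± 0.16 (SE, adjusted p = 0.122). Its control arrays 1 and 2 were at 4.12 and 4.17 and the others between 4.85 and 5.18, so that the groups overlapped. It was called at 0.60 with normexp, 0.55 with quantile and 0.60 with cyclic loess normalization, and without control array 4. The direction for Grb10 as a gene is therefore not settled by these probes.

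The Peg3 probes both had positive log2 differences, and A_51_P206037 alone was called. Probe A_51_P206037 had −2.23, −2.07, −1.64, −2.20 and −2.07 with 8 Gy serum and −3.22, −2.27, −2.17, −3.07 and −2.91 with control serum. Control array 3 reached into the range of the 8 Gy arrays and the other 4 lay below it, and the log2 difference was 0.69 ± 0.17 (SE, adjusted p = 0.00332). Probe A_52_P235861, with −4.22 ± 0.28 and −4.34 ± 0.60 (SD), differed by 0.12 ± 0.21 (SE, adjusted p = 0.669), and its sign turned in some alternatives.

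Dlk1 and Igf2r were called with small differences. Dlk1 had 2.72, 2.70, 2.76, 2.63 and 2.52 with 8 Gy serum and 2.69, 2.23, 2.48, 2.39 and 2.38 with control serum, a log2 difference of 0.23 ± 0.08 (SE, adjusted p = 0.0286). Control array 1 lay inside the 8 Gy range and the other 4 below it. Igf2r, whose levels are given above, differed by −0.28 ± 0.11 (SE, adjusted p = 0.0452), and control array 1, at 3.14, lay among the 8 Gy arrays. Neither call held with slide as a random block, where the adjusted p was 0.152 for Dlk1 and 0.192 for Igf2r. The Dlk1 difference was 0.10 with normexp background correction and 0.09 with median scaling (adjusted p = 0.365 and 0.454), and the Igf2r difference was −0.06 with quantile and with cyclic loess normalization (adjusted p = 0.664 and 0.685). Dlk1 was at 0.39 with quantile and 0.43 with cyclic loess normalization (adjusted p = 0.000531 and 0.000293), and Igf2r at −0.49 with normexp and −0.43 with median scaling (adjusted p = 0.00166 and 0.00685). Dlk1 was not called without control array 2, 4 or 5 or 8 Gy array 1, 2 or 3, and Igf2r was not called without control array 2, 3 or 5 or 8 Gy array 1, 2, 3 or 5. In the 20-day set each slide held 1 group only, so no comparison within a slide could be made.

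Igf2 did not pass the test, with log2 differences of 0.14 ± 0.11 and 0.10 ± 0.16 (SE, adjusted p = 0.306 and 0.619) and overlapping groups in both probes. Other normalizations moved these values. Probe A_51_P516826 was called at 0.38 with quantile and at 0.46 with cyclic loess normalization (adjusted p = 0.00577 and 0.00377), and differed by 0.09 with normexp and 0.00 with median scaling (adjusted p = 0.593 and 0.995). Probe A_51_P516833 was called at 0.45 with normexp (adjusted p = 0.0346), and differed by 0.29, 0.35 and −0.04 with quantile, cyclic loess and median scaling (adjusted p = 0.111, 0.0583 and 0.855). Neither Mest nor Cdkn1c passed the test, Mest at −0.32 ± 0.14 (adjusted p = 0.0756) and Cdkn1c at 0.26 ± 0.28 (adjusted p = 0.459). Mest was called at −0.43 with normexp background correction and at −0.46 with arrays scaled to the median, and without control array 5 or 8 Gy array 3.

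Beside these values, 3 of the 13 macrophage markers fell with 8 Gy serum and 0 rose, Ptprc by 0.61, Tyrobp by 0.72 and Adgre1 by 0.78 (measured on 3 of 5 control arrays), and the summed signals overlapped between the groups. Another probe of Ptprc differed by −0.00 and another of Adgre1 by 0.11. Of 10 fibroblast markers 2 rose and 2 fell, with Fn1 at 0.53 (other probes 1.14 and 1.11), Vim at 0.37 and Pdgfrb at −0.30 (adjusted p = 9.19e-05, 0.00736 and 0.0105). The Vim call was lost with median scaling, the Pdgfrb call with quantile and cyclic loess normalization, and both with only the groups compared and with slide as a random block. Of 3 muscle markers 1 rose, Des at 0.92 (adjusted p = 1.22e-06), and 1 fell, Myog, below background in both groups. Of 3 chondrocyte markers Col2a1 rose and Acan and Sox9 fell, the other Sox9 probes differing by 1.04 and −0.20. Of 3 endothelial markers 2 fell, Kdr at −0.27 and Cdh5, below background in both groups. By limma 0 of 5 epithelial and 0 of 1 fetal liver markers were called. Of 5 adipocyte markers 3 fell, Pparg, Adipoq and Fabp4, by 0.55, 0.81 and 0.49, and of 14 cycling genes 7 fell and 3 rose, with Pcna at −0.54, Birc5 at −0.79 and Aurka at −0.68. Aurka was not called with normexp background correction, nor were Col2a1, Acan, Kdr, Adipoq and Fabp4 with slide as a random block. The part of these in the result was not tested.

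In the related lists, 4 of 36 other imprinted genes rose with 8 Gy serum and 15 fell, with a median log2 difference of −0.16. Trappc9 fell by 0.40 (not called with normexp) and Cd81 by 0.51 (not called with cyclic loess normalization), while Gnas, the stimulatory G protein subunit, rose by 0.65 in one probe and differed by −1.05 in another. Of 16 IGF partners 3 rose and 2 fell. Igfbp4 rose by 1.54 ± 0.21 (SE, adjusted p = 1.1e-05) and its other probe differed by 1.53, and Igfbp3 (measured on 4 of 5 control arrays) rose by 0.78 and Akt2 by 0.66. Of 13 imprint maintenance genes 3 rose and 5 fell, with Ctcf, the insulator protein at the Igf2 locus, at −0.68 (adjusted p = 3.31e-07), Smchd1 at −0.78 and Rad21 at −0.51. Other probes of Smchd1 differed by −0.29 and 0.17 and that of Rad21 by −0.09.

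The comparison of 4 Gy serum with control serum of the 10-day set showed little change. Of the 13 probes 0 rose and 1 fell, where 3.85% of the 26231 probes tested rose and 1.40% fell, 5.25% in either direction. The log2 differences ran from −0.56 to 0.10 with a median of −0.14, against −0.00 over all probes, and 12 of 13 were negative. The groups overlapped for all 13 probes, and the share of all probes with such an overlap was not counted.

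The call was the second Igf2 probe, A_51_P516833. It had 6.19, 5.97, 5.30, 5.22 and 5.23 with 4 Gy serum and 6.31, 6.27, 6.19, 5.92 and 6.01 with control serum, a log2 difference of −0.56 ± 0.16 (SE, n = 5 each, adjusted p = 0.0423). Arrays 1 and 2 with 4 Gy serum lay among or near the control arrays, and arrays 3 to 5 lay below all of them. Those 3 arrays were on a slide of their own, slide 3, while arrays 1 and 2 shared slide 2 with control array 5. Within slide 2 the 4 Gy arrays differed from the control array by 0.07, and the 4 Gy arrays of slide 3 differed from those of slide 2 by −0.83. With slide as a random block the log2 difference was −0.35 (adjusted p = 0.633), and the call was lost without control array 1, 2, 3 or 4 or 4 Gy array 3, 4 or 5. The other Igf2 probe differed by −0.24 ± 0.11 (SE, adjusted p = 0.221), and by −0.02 within slide 2.

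**Figure D4:**
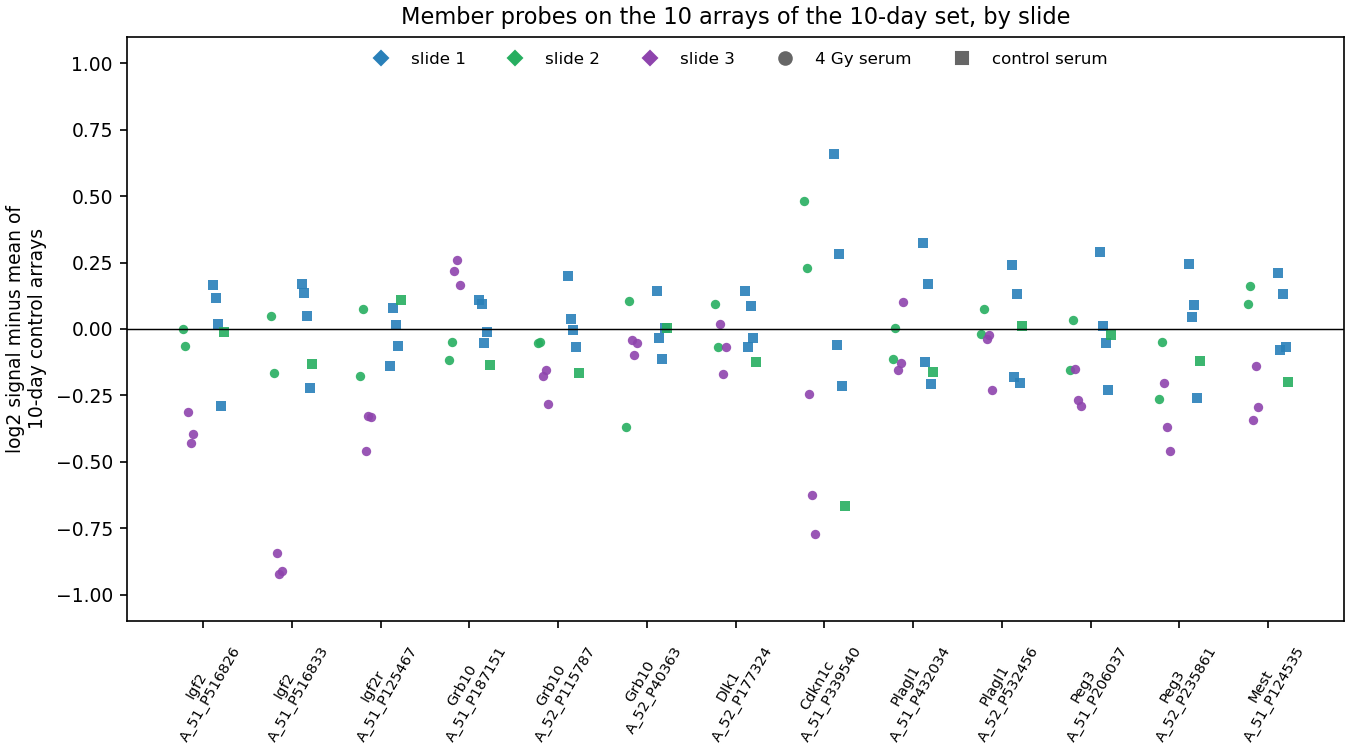
Level of each member probe on the 10 arrays of the 10-day set as a log2 difference from the mean of the 10-day control arrays (vertical axis); circles are 4 Gy serum, squares control serum, and colours are slides. For Igf2 probe A_51_P516833 the 3 purple circles of slide 3 lie below all other points, and the green points of slide 2 lie together.

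Over the 13 probes the same split was visible. Within slide 2, 5 of 13 differences were negative with a median of 0.05, and slide 3 was below slide 2 among 4 Gy arrays in 11 of 13 probes. Cdkn1c differed by −0.19 ± 0.28 over all arrays (SE, adjusted p = 0.771), by 1.02 within slide 2 and by −0.90 between the 4 Gy arrays of slides 3 and 2. Mest differed by −0.10 over all arrays and 0.33 within slide 2. Slide 2 held 3 arrays, 1 of them a control, so its values have no replicate spread for the control. Igf2r differed by −0.24 ± 0.11 (SE, adjusted p = 0.217) over all arrays and by −0.16 within slide 2.

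Of the related lists at 10 days, 1 of 36 other imprinted genes fell, Zrsr1 by 0.55 (adjusted p = 0.0212), and none rose. No IGF partner, imprint maintenance gene or cycling gene was called, 0 of 16, 0 of 13 and 0 of 14 by limma. Of the macrophage markers 3 of 13 rose, Cd14 by 0.36, Lyz2 by 0.55 and C1qb by 0.60, of the fibroblast markers Fn1 fell by 0.34, and of the 5 epithelial markers Krt5 rose by 0.92 (adjusted p = 0.0155). None of these 6 calls held with slide as a random or a fixed block. Their part in the Igf2 value was not tested.

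Whether the members answered irradiated serum differently in the 2 sets was tested as the difference between the responses, 8 Gy minus control at 20 days minus the same for 4 Gy at 10 days. Of the 13 probes 3 were higher and 3 lower, where 15.3% and 21.1% of all probes were, 36.4% in all. Plagl1 differed by −0.87 ± 0.17 and −0.70 ± 0.14 in its 2 probes (log2 ± SE, adjusted p = 0.000728 and 0.000901). Grb10 differed by 0.75 ± 0.17 in probe A_51_P187151 and by −0.48 ± 0.12 in probe A_52_P40363 (adjusted p = 0.00216 and 0.00509). Peg3 probe A_51_P206037 differed by 0.85 ± 0.25 and Igf2 probe A_51_P516833 by 0.66 ± 0.22 (SE, adjusted p = 0.0116 and 0.0250). That Igf2 probe differed by 0.10 at 20 days and by −0.56 at 10 days, and with normexp by 0.45 at 20 days, with a difference between responses of 1.09 (adjusted p = 0.00148). The brighter Igf2 probe was called at 0.58 with quantile and 0.66 with cyclic loess normalization (adjusted p = 0.00559 and 0.0046), and Dlk1 at 0.44 with cyclic loess (adjusted p = 0.00563). Grb10 probe A_52_P115787 was called at 0.71 with cyclic loess (adjusted p = 0.0304), and with normexp Grb10 probe A_51_P187151 was at 0.40 and Plagl1 probe A_51_P432034 at −0.58 (adjusted p = 0.0267 and 0.00924). With slide as a random block the Igf2, Peg3 and second Grb10 values no longer passed the threshold (adjusted p = 0.209, 0.0923 and 0.0536), and the Igf2 value did not pass without 4 Gy array 4 or 5 either. The 2 responses differ in dose as well as in set, which cannot be told apart. At 20 days serum cannot be told apart from slide either.

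In the related lists, 5 of 36 other imprinted genes had a higher 20-day than 10-day response and 9 a lower one, with Trappc9 at −0.52, Ampd3 at 0.51 and Gnas at 0.52 (other probe −2.19). Of 16 IGF partners 3 were higher and 1 lower, with Igfbp4 at 1.21, Akt2 at 0.49 and Igf2bp2 at −0.62. Of 13 imprint maintenance genes 3 were higher and 5 lower, with Trim28 at 0.99, Ctcf at −0.86 and Rad21 at −0.60 (other probe −0.02). Of 14 cycling genes 2 were higher and 2 lower, with Mcm3 at 0.35, Pcna at −0.46 and Birc5 at −0.61. Among markers, 5 of 13 of macrophages were lower and 0 higher, with Ptprc at −0.80, Tyrobp at −0.85 and Cd14 at −0.52, while Fn1 at 0.86 and Des at 1.01 were higher. Also lower were 2 of 5 adipocyte, 1 of 3 endothelial and 1 of 5 epithelial markers, the last being Krt5 at −1.24. With slide as a random block Igf2bp2, Mcm3 and Cd14 were not called, with normexp Akt2, Ampd3, Birc5, Mcm3, Tyrobp and Krt5 were not, and with quantile normalization Pcna and Birc5 were not. The part of these lists in the members' values was not tested.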

How the data were processed

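The deposited scanner files of the authors hold a processed intensity per spot, background-subtracted and detrended, with no scaling between arrays. They also hold median intensities of spot and background and, as values of another kind, 0 or 1 quality marks. Per the file headers the version of Agilent Feature Extraction was 10.5.1.1, and the submitters' processing notes name 11.0. The authors' deposited log2 table, centred per probe within each set, served as an alternative.

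On each array 50 to 181 spots carried a mark as non-uniform or as a population outlier and were not used, and spots of a probe were averaged. The signal was the log2 processed intensity minus the array's 75th percentile, which was 731 to 1464 units. By group it averaged 939 ± 57.1 for 8 Gy serum, 916 ± 134 for 20-day control serum, 1104 ± 102 for 4 Gy serum and 1316 ± 109 for 10-day control serum (SD, n = 5 each). Between 56.8% and 67.2% of probes were well above background, and 0 spots were saturated. RefSeq accessions named 24844 probes and left 16330 unnamed.

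The 26233 probes well above background on each array of at least 1 group were fitted with limma 3.58.1 in R 4.3.3 (group means, two-sided, Benjamini-Hochberg adjustment over all of them, threshold 0.05), after a test on simulated data. The number of arrays limits the precision. A fold of a gene at background in 1 group is a bound, open to the reading of the dimmest probes. For list genes the tested probe with the highest mean signal was used. All member probes were named. The rule for lists was the 3 genes per list and comparison with the smallest p values past the threshold; not all of these are printed, some marker lists are given by counts or by genes at background, and 1 gene that this rule names is not reported here. The members and lists were chosen with earlier results of these data known.

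Same-numbered arrays of the 20-day set deviated together (correlations of 0.131 to 0.402 over 5 pairs). The best match of an 8 Gy array was the control array of its number only for arrays 1 and 5. The labels state no pairing, so the numbers were used only in an alternative, the replicate block. In the other comparisons not every pair passed 0.1. Background correction by normexp (offset 50) used the median signals, since the files hold no mean signal column. Gene coordinates are not given except for promoter sequences, because the array headers name another mouse build than the RefSeq table.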

Additional observations from a re-analysis of the deposited data

Results flagged for a closer look

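One value lay apart within its group. Peg3 probe A_51_P206037 was at −1.64 on array 3 with 8 Gy serum, while the other 4 arrays lay between −2.23 and −2.07. Of 52 groups of member values 1 stood apart in this way, and chance gives about 1 in 20.

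For 6 of the 13 probes the response to irradiated serum differed between the sets, where 36.4% of all probes tested did. With slide as a random block the Igf2 and Peg3 probes and Grb10 probe A_52_P40363 no longer passed the threshold. The difference of the log2 responses, 20-day minus 10-day, was −0.87 and −0.70 for the Plagl1 probes A_51_P432034 and A_52_P532456. It was 0.75 for Grb10 probe A_51_P187151, −0.48 for Grb10 probe A_52_P40363, 0.85 for Peg3 probe A_51_P206037 and 0.66 for Igf2 probe A_51_P516833. Opposite signs in probes of 1 gene occurred for Grb10.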

How the results depend on the processing

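The fall of the members in the 20-day set gave 12 to 12 probes between controls and 13 to 13 between irradiated groups when 1 array was left out. With 1 probe per gene, which leaves 8 probes, 8 were called in each of the 2 comparisons. The count with 8 Gy serum was 7 and became 4 with 1 probe per gene and 5 to 7 without 1 array; Dlk1 and Igf2r were the calls lost most often. The 10-day count of 1 became 0 without the filter on dim probes, with 1 probe per gene, with only the groups compared in the fit and with slide as a random or a fixed block, and was 0 to 1 without 1 array. The difference between responses had 6 calls, 2 with 1 probe per gene, 3 with slide as a random block and 5 to 8 without 1 array.

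With the replicate block, 7 probes were called with 8 Gy serum, 1 with 4 Gy serum, 7 for the difference between responses, 12 between controls and 13 between irradiated groups, and no call within the 20-day set changed.

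Signs turned for small differences. At 10 days, Plagl1 probe A_52_P532456 was 0.028 with normexp. With slide as a random block Mest was 0.039, Cdkn1c 0.22 and Dlk1 0.021. With slide as a fixed block Mest was 0.33, Cdkn1c 1.02, the Plagl1 probes 0.11 and 0.019, Igf2 probe A_51_P516833 0.071, Grb10 probe A_52_P115787 0.12 and Dlk1 0.14. When 1 array was left out the Plagl1 probes ranged from −0.11 to 0.023 and from −0.098 to 0.014, positive without control array 1. With 8 Gy serum, Igf2 probe A_51_P516833 was −0.042 with median scaling, and Peg3 probe A_52_P235861 was −0.024 with median scaling, −0.027 with quantile normalization and −0.055 to 0.25 without 1 array, negative without control array 4 or 5. In the difference between responses Igf2r was 0.15 with quantile and 0.16 with cyclic loess normalization, and −0.13 to 0.041 without 1 array, positive without 4 Gy array 2 or 20-day control array 2 or 3. Between controls Grb10 probe A_52_P40363 was −0.038 with quantile and −0.069 with cyclic loess normalization. Zrsr1 was 9.75e-06 at 10 days with slide as a fixed block. With normexp, Cdh5 was 0.016 with 8 Gy serum and Krt5 0.038 between irradiated groups. Of 120 calls of list and marker genes, 85 held under all 20 to 31 alternatives run for each. For the normalizations the cause was not tested.

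Over all probes, 1011 rose and 367 fell at 10 days, 2037 and 1372 with only the groups compared, 811 and 670 with median scaling, 953 and 655 with quantile normalization, 0 and 1 with slide as a random block and 1 and 26 with it as a fixed block. Without 1 array the 10-day counts ran from 36 and 2 (4 Gy array 4 left out) to 1586 and 926 (4 Gy array 2 left out). With 8 Gy serum 5409 rose and 7188 fell, 3806 and 9933 with median scaling, which moved the median of all probes to −0.20, and 3560 and 4816 with slide as a random block. The difference between responses gave 4007 and 5532, and 2344 and 2965 with that block. With normexp the splits were 11118 and 5979 between controls (9295 and 8477 otherwise, median of all probes 0.19) and 8003 and 4610 between irradiated groups (7410 and 7569 otherwise).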
